A study of Mus musculus with 13 samples.

Results

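B lymphocytes and the antibody-secreting plasma cells they give rise to were followed here through 30 of their genes, measured on arrays of mouse mammary tumour RNA. The genes were chosen by symbol, and a gene with several features was represented by the feature with the highest mean. A feature was found for 29 of the 30 genes, among 22206 features tested and 19505 genes with a symbol. Pou2f2, which encodes the octamer-binding factor OCT-2, was not analysed here. They comprised 7 genes of the B cell receptor and its signalling, 9 of other surface molecules, 5 of transcription factors, 3 of receptors for B cell survival factors, 4 of plasma cells and 1 of B cell precursors.

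A B cell recognises antigen through a membrane antibody that signals through the CD79A and CD79B chains. The transcription factors EBF1 and PAX5 establish and keep B cell identity, and IRF4 with BLIMP-1 (gene Prdm1) drive the step to the plasma cell, which makes the joining chain JCHAIN and secretes antibody. In lymph nodes the chemokine CXCL13 draws B cells into follicles. 4T1 is a transplantable BALB/c mammary carcinoma known above all for the myeloid cells it attracts.

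The tumours had been grown in 1 mammary fat pad after injection of 4T1 cells, and total RNA pooled from tumours was hybridised to Clariom S arrays. There were 12 tumour arrays, 2 in each of 6 groups. The groups were Nlrx1-/- hosts bearing 4T1OE tumours (a transduced line overexpressing NLRX1), Nlrx1-/- hosts bearing 4T1OE-CTL tumours (the transduced control line), Nlrx1-/- hosts bearing untransduced parental tumours, and WT hosts bearing each of those 3 lines. All hosts were BALB/c, with no other treatment. Each array was 1 RNA pool of an unstated number of tumours, and p-values measure the spread between these pools. The Nlrx1 deletion was in the host, whereas the injected cells had their own Nlrx1. The sources used here do not give the species of the overexpressed NLRX1. The labels advised leaving out the Nlrx1-/- parental replicate 1 array, so 11 arrays were fitted, with 1 Nlrx1-/- parental array assumed to vary like the others; the values of the twelfth are given as descriptions.

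All values are deposited log2 expression values. The Nlrx1 feature read 9.31 to 10.67 on the 4 4T1OE arrays, 5.99 to 7.06 on the 4 4T1OE-CTL arrays and 6.13 to 7.13 on the 4 parental arrays. In 4T1OE tumours it stood above 4T1OE-CTL tumours by 3.39 (SE 0.34, limma adjusted p = 0.00227), and with the array spread as a covariate the adjusted p was 0.0777. Between Nlrx1-/- and WT hosts it differed by -0.07 (SE 0.29, limma adjusted p = 1.00). The 12 arrays had medians of 5.89 to 6.25, and their values had standard deviations of 2.53 to 3.12, lowest on the array left out of the fits. The median of the 5222 negative control features, taken on each array as the level of background, was 5.24 to 5.96.

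Promoter sequences of 3 of these genes are printed to show the regulatory DNA of a gene with a wide range across arrays and of those holding a motif of B cell factors. The sequences were RefSeq promoters of the GRCm38.p6 build, the 250 bases before the annotated start, 5′ to 3′ on the gene's strand, with a matched motif in capitals. Cd79a was at chr7:24897247-24897496 on the plus strand, Cd22 at chr7:30879029-30879278 on the minus strand and Blnk at chr19:40994222-40994471 on the minus strand.
Cd79a: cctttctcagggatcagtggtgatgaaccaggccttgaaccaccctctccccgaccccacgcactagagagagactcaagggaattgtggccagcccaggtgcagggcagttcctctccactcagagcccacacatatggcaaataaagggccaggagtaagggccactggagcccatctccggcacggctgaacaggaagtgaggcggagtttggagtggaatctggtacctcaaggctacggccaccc
Cd22: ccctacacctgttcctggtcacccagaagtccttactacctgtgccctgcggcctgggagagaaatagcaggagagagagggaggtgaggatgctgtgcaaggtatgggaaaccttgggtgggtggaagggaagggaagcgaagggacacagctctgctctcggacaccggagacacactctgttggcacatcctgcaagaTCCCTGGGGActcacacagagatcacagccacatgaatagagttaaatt
Blnk: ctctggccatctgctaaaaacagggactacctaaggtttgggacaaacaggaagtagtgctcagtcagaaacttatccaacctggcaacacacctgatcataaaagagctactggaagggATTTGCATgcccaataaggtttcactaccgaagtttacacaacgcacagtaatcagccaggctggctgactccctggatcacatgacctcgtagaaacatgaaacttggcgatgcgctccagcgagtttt
A promoter was found for 24 of the members, 26 promoters in all. On both strands, the EBF motif (TCCC, 2 bases of any kind, GGGA) was present in 1 member, Cd22, and in 0.78% of all 32841 promoters of the same length. The octamer ATGCAAAT, read by OCT-2 and its coactivator encoded by Pou2af1, was present in Blnk and Vpreb3 and in 1.6% of all promoters. The PU box GAGGAAGT, of the ETS family to which SPI-B belongs, was present in Btla, Cd37, Cd72 and Fcrl1 and in 2.44% of all promoters. No other motif was searched, and none of the 3 contains another. The match in Cd22 began 49 bases before the start and that in Blnk 130 bases before it, and the Cd79a window held no exact match. Only these exact letters were searched, so a site that differs from them by a base would be missed. The lack of a match in Cd79a or another member therefore does not show that it lacks a site for these factors.

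On 3 of the 12 arrays the B cell genes were far above all others. These were the replicate 1 arrays of Nlrx1-/- hosts, 1 for each injected line, and their B cell genes stood highest in the 4T1OE-CTL tumours. In the replicate 2 arrays of the same hosts the same genes were at the level of the WT tumours. For 22 of the 29 members (75.9%) the 3 highest values of the 12 lay on these 3 arrays, as they did for 273 of the 22206 features tested (1.23%). For 12 members, against 0.288% of all features, the lowest of the 3 stood at least 1 log2 unit above the highest of the other 9. The 3 arrays were picked out after their values had been seen, so these shares are a description with no test. Of the 22 members, 16 were above the median of the negative controls on all 3 arrays, and the other 6 (Cd22, Fcrl1, Fcrla, Spib, Mzb1 and Irf4) lay under it on the parental array. The labels do not say what a replicate number stands for.

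**Figure D1:**
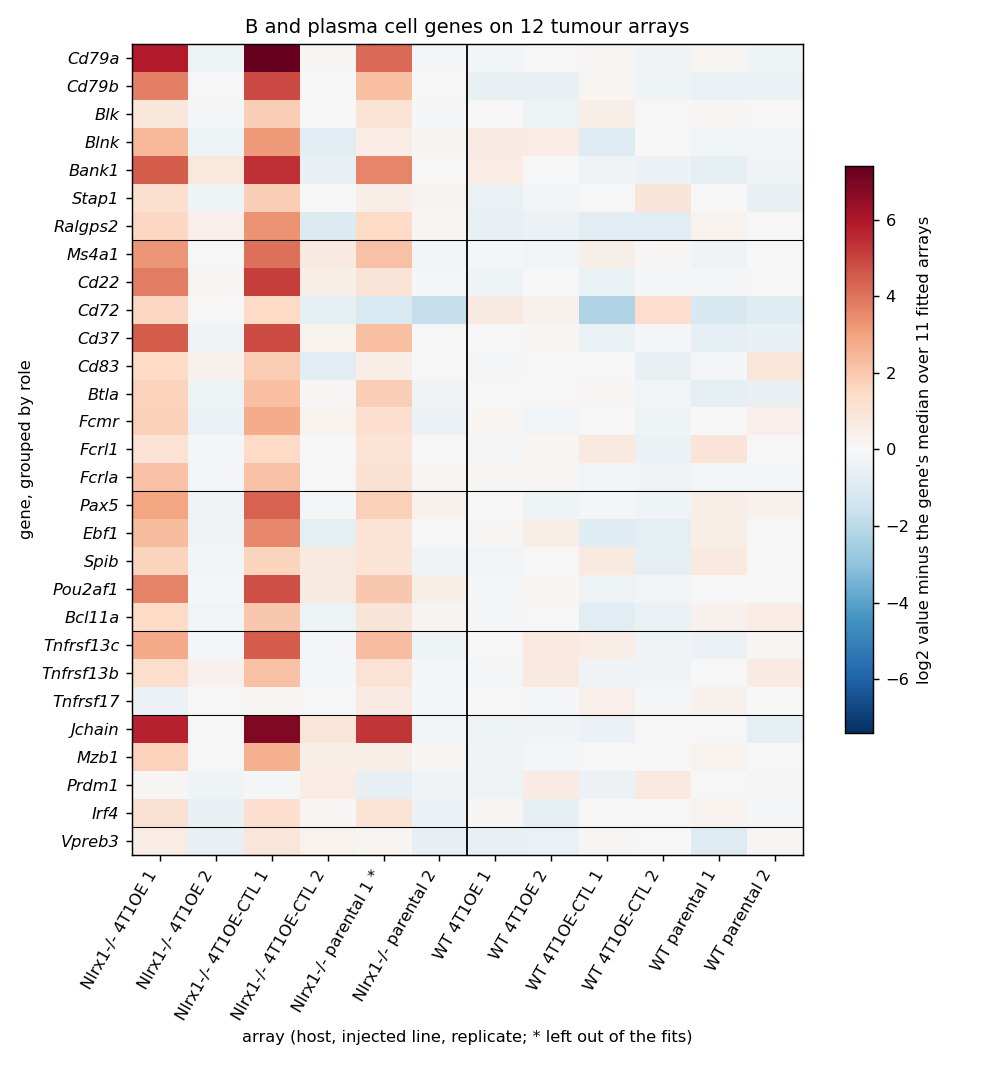
Each cell is the log2 value of 1 gene (vertical axis, 29 members grouped by role, from receptor and signalling genes at the top to the precursor gene at the bottom) on 1 array (horizontal axis) minus the median of that gene over the 11 fitted arrays; the line parts Nlrx1-/- from WT hosts and the asterisk marks the array left out of the fits. The 3 Nlrx1-/- replicate 1 columns are red for most genes, whereas Cd72, Tnfrsf17 and Prdm1 do not follow them.

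As a set, the members had a median deviation from their own medians of 1.73 on the Nlrx1-/- 4T1OE replicate 1 array, 2.64 on the Nlrx1-/- 4T1OE-CTL replicate 1 array and 1.02 on the Nlrx1-/- parental replicate 1 array. It was -0.12 to 0.00 on the 3 Nlrx1-/- replicate 2 arrays and -0.22 to 0.00 on the 6 WT arrays. Without the members that cells outside the B lineage are known to express, the 3 high arrays stood at 2.83, 4.06 and 1.24 in the same order. The number of members above the negative control median was 27, 27 and 20 on those arrays, 12 to 13 on the Nlrx1-/- replicate 2 arrays and 10 to 14 on the WT arrays. Of the 29 members, 14 lay under the negative control median on each of the other 9 arrays, and 7 of those were above it on all 3 high arrays. In bulk tumour RNA, more cells of a type and more RNA per cell cannot be told apart.

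The ranges of the receptor and signalling genes over the 12 arrays went from 2.18 log2 units in Blk to 7.77 in Cd79a. Cd79a, the receptor's signalling chain alpha, read 9.72, 11.23 and 8.01 on the Nlrx1-/- replicate 1 arrays of 4T1OE, 4T1OE-CTL and parental tumours and 3.46, 3.92 and 3.69 on the replicate 2 arrays in that order. In WT tumours its lowest, median and highest values were 3.48, 3.72 and 3.95. The hosts therefore overlapped, since 3 Nlrx1-/- arrays lay among the WT arrays, all of these under the negative control median. Its partner chain, Cd79b, read 8.10, 9.22 and 6.55 on the Nlrx1-/- replicate 1 arrays and 4.39, 4.34 and 4.40 on the replicate 2 arrays, against 3.77, 3.84 and 4.49 in WT tumours (lowest, median, highest). Over the 12 arrays Cd79a spanned 7.77 log2 units, the widest range of the 29.

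The scaffold gene Bank1, whose protein links the receptor to calcium release, read 10.76, 11.66 and 9.89 on the Nlrx1-/- replicate 1 arrays of 4T1OE, 4T1OE-CTL and parental tumours. It read 7.04, 5.74 and 6.27 on the replicate 2 arrays, against 5.53, 5.99 and 6.84 in WT tumours (lowest, median, highest). The Nlrx1-/- 4T1OE replicate 2 value thus lay just above the highest WT value. Ralgps2, an exchange factor for Ral GTPases that other tissues also use, read 9.77, 11.61 and 9.74 on the replicate 1 arrays, 8.62, 7.24 and 8.36 on the replicate 2 arrays and 7.40 to 8.49 in WT tumours. The Src-family kinase gene Blk read 6.04, 7.03 and 6.22 on the replicate 1 arrays, against at most 5.63 on the other 9. The adaptor genes Blnk and Stap1 did not have these 3 arrays highest. Blnk, whose protein couples the kinase SYK to phospholipase C gamma and whose promoter is printed above, read 8.88, 9.54 and 6.96 on them and up to 7.02 in WT tumours. Stap1 read 7.41, 8.02 and 6.69 on them and up to 7.20 in WT tumours.

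Among the surface molecules, Ms4a1, which encodes CD20, read 7.36, 8.15 and 6.25 on the Nlrx1-/- replicate 1 arrays of 4T1OE, 4T1OE-CTL and parental tumours. It read 4.10, 4.75 and 3.87 on the replicate 2 arrays, against 3.85, 3.99 and 4.50 in WT tumours (lowest, median, highest). It exceeded the negative control median on the 3 replicate 1 arrays and on none of the other 9. Cd22, an inhibitory sialic acid-binding co-receptor of B cells, read 8.38, 9.74 and 5.56 on the replicate 1 arrays and 4.76, 5.03 and 4.49 on the replicate 2 arrays, against 4.10, 4.50 and 4.65 in WT tumours. Its value on the Nlrx1-/- parental replicate 1 array was under that array's negative control median. Cd37, a tetraspanin of leukocytes, read 10.59, 10.94 and 8.34 on the replicate 1 arrays and 5.85, 6.36 and 6.13 on the replicate 2 arrays, against 5.44, 5.82 and 6.21 in WT tumours.

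Smaller steps of the same kind were seen in Btla, an inhibitory receptor of B and T cells, in Fcmr, the Fc receptor for IgM, and in the Fc receptor-like genes Fcrl1 and Fcrla. Btla read 7.21, 7.73 and 7.32 on the Nlrx1-/- replicate 1 arrays and at most 5.57 elsewhere. Fcmr read 6.56, 7.51 and 6.01 and at most 5.16 elsewhere. Fcrla read 5.85, 5.86 and 4.81 and at most 3.78 elsewhere. Fcrl1 barely separated, with 5.83, 6.25 and 5.74 on the replicate 1 arrays and a highest WT value of 5.72. Cd72 and Cd83, which macrophages or dendritic cells also express, did not have the 3 arrays highest. Cd72, an inhibitory lectin, read 12.22, 12.13 and 9.52 on them, 10.67, 9.96 and 8.96 on the replicate 2 arrays and 8.45, 10.39 and 11.96 in WT tumours (lowest, median, highest). Cd83 read 8.05, 8.50 and 7.05 on the replicate 1 arrays and up to 7.47 in WT tumours. Over the fitted arrays Cd72 had an SD of 1.40 among Nlrx1-/- tumours and of 1.32 among WT tumours (n = 5 and 6).

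**Figure D2:**
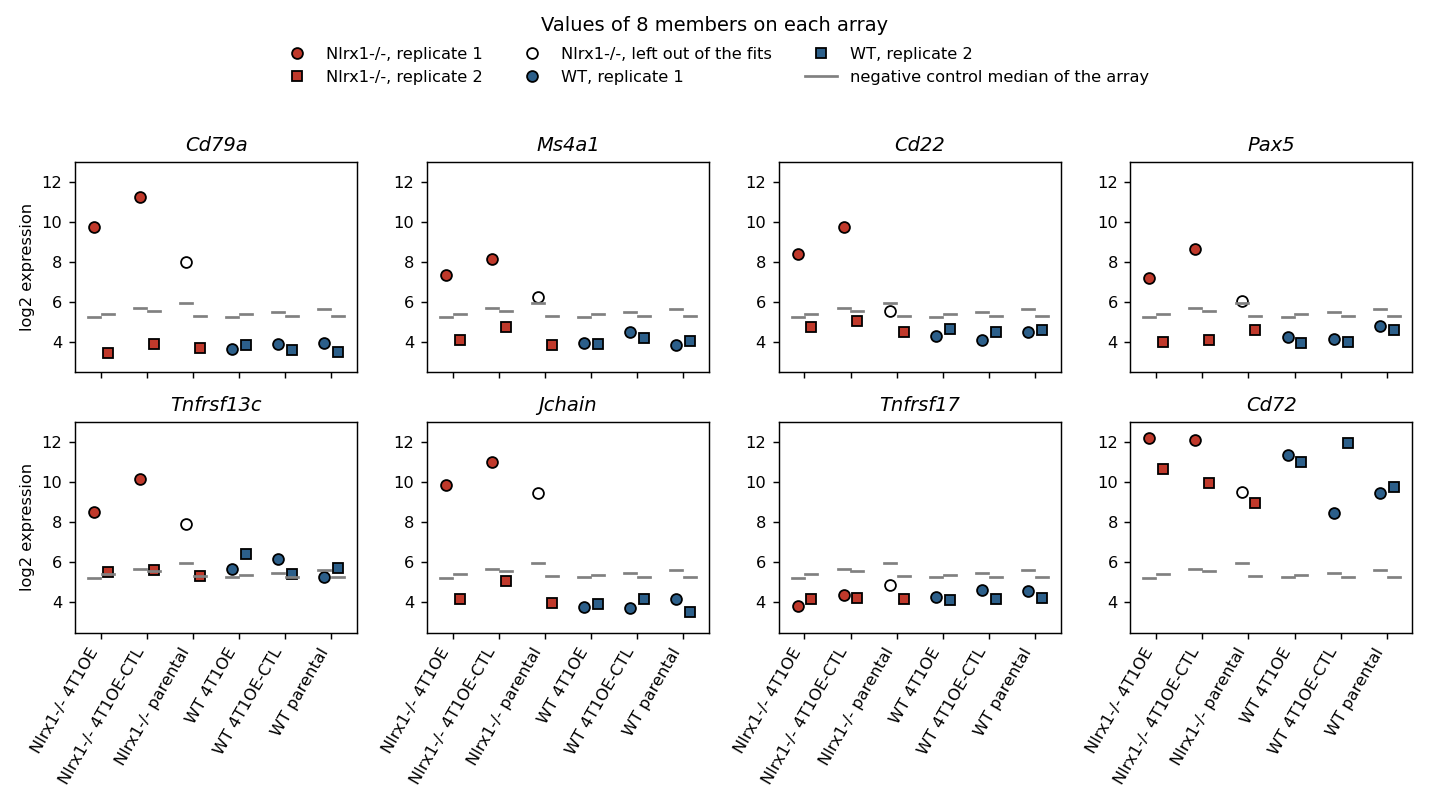
Points are log2 expression values (vertical axis) of 8 members on each of the 12 arrays, by host and injected line (horizontal axis); red is Nlrx1-/-, blue is WT, circles are replicate 1, squares are replicate 2, the open circle is the array left out of the fits and grey bars are each array's negative control median. For Cd79a, Ms4a1, Pax5, Tnfrsf13c and Jchain the 3 Nlrx1-/- circles lie above every other point, Tnfrsf17 lies under the grey bar on all 12 arrays, and Cd72 is spread over both hosts.

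The transcription factors of the B lineage followed the receptor genes. Pax5 read 7.18, 8.62 and 6.03 on the Nlrx1-/- replicate 1 arrays of 4T1OE, 4T1OE-CTL and parental tumours and 3.98, 4.10 and 4.60 on the replicate 2 arrays, against 3.94, 4.20 and 4.77 in WT tumours (lowest, median, highest). Pou2af1, the coactivator of the octamer factors, read 7.76, 8.84 and 6.06 on the replicate 1 arrays and 3.95, 4.72 and 4.50 on the replicate 2 arrays, against 3.69, 4.01 and 4.20 in WT tumours. Both were under the negative control median on the other 9 arrays. Ebf1, which fat and stromal cells also express, was above background on all 12 arrays and read 10.20, 11.42 and 8.86 on the replicate 1 arrays, 7.56, 7.19 and 7.83 on the replicate 2 arrays and 6.95 to 8.29 in WT tumours. Bcl11a and Spib, both also used by plasmacytoid dendritic cells, had narrower gaps. Spib read 6.31, 6.31 and 5.67 on the replicate 1 arrays and at most 5.39 elsewhere, and Bcl11a read 7.88, 8.40 and 7.36 and at most 6.95 elsewhere.

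Of the receptors for the survival factors BAFF and APRIL, those of naive and memory B cells were high and that of plasma cells was at background. Tnfrsf13c, the BAFF receptor, read 8.50, 10.18 and 7.94 on the Nlrx1-/- replicate 1 arrays of 4T1OE, 4T1OE-CTL and parental tumours and 5.53, 5.62 and 5.31 on the replicate 2 arrays, against 5.26, 5.71 and 6.41 in WT tumours (lowest, median, highest). Tnfrsf13b, the receptor TACI, read 7.85, 8.70 and 7.61 on the replicate 1 arrays, against 6.37 to 6.84 on the replicate 2 arrays and 6.23 to 7.24 in WT tumours. Tnfrsf17, the plasma cell receptor BCMA, read 3.82, 4.38 and 4.87 on the replicate 1 arrays, 4.17 to 4.24 on the replicate 2 arrays and 4.11 to 4.60 in WT tumours. It was under the negative control median on every array, as was Vpreb3, a gene of B cell precursors, which read 5.07, 5.45 and 4.65 on the replicate 1 arrays and at most 4.82 elsewhere.

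The plasma cell genes were divided. Jchain read 9.85, 11.02 and 9.47 on the Nlrx1-/- replicate 1 arrays of 4T1OE, 4T1OE-CTL and parental tumours and 4.19, 5.10 and 3.99 on the replicate 2 arrays, against 3.51, 3.85 and 4.19 in WT tumours (lowest, median, highest). Mzb1, an endoplasmic reticulum protein of B and plasma cells, read 5.74, 6.69 and 4.50 on the replicate 1 arrays and at most 4.46 elsewhere, and only the first 2 of these exceeded the negative control median. Irf4 read 5.62, 5.78 and 5.50 on the replicate 1 arrays and at most 4.79 elsewhere. Prdm1, which T cells and epithelia also express, read 6.58, 6.37 and 5.88 on the replicate 1 arrays, 6.21 to 7.07 on the replicate 2 arrays and 6.07 to 7.20 in WT tumours, so it showed no separation. The other plasma cell markers fixed as a list did not follow Jchain. Sdc1, which epithelial tumour cells also express, read 13.06, 11.85 and 12.67 on the replicate 1 arrays, 12.82 to 14.10 on the replicate 2 arrays and 13.04 to 14.81 in WT tumours. Xbp1 read 11.82 to 13.69 on the replicate 1 arrays and Derl3 was under the negative control median on all 12. Of 6 plasma cell markers, 2 (Jchain and Mzb1) had the 3 arrays highest, whereas all 5 B cell markers measured did (Ms4a1, Cd79a, Cd79b, Pax5 and Cd22, all of them members). As the arrays were picked by the values of the members, this place of the 5 B cell markers restates that choice. On the parental array Mzb1 stood 0.043 above the other 9 arrays and under background, so of the plasma cell markers Jchain alone was above background on all 3 arrays and on none of the other 9.

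The 3 high arrays kept 1 order in most members. In 24 of the 29 members, and in 20 of the 22 with these arrays highest, the Nlrx1-/- 4T1OE-CTL value was above the Nlrx1-/- 4T1OE value and that above the Nlrx1-/- parental value. The 4T1OE-CTL array held the highest value of all 12 in 26 members. These counts describe 3 single pools, carry no test, and were not made over all features. They therefore do not show that the order is particular to the members, and genes that move together are not replicates of it. Of the 12 arrays, the parental one had the highest negative control median (5.96) and the lowest SD of its values (2.53). The part of these in its last place was not tested. By role, the median deviation on the 4T1OE, 4T1OE-CTL and parental replicate 1 arrays of Nlrx1-/- hosts was 2.47, 3.35 and 1.48 for receptor and signalling genes and 2.37, 3.59 and 1.02 for transcription factors. It was 1.79, 2.25 and 1.13 for surface molecules, 1.33, 2.18 and 1.09 for survival factor receptors and 1.40, 1.95 and 0.72 for plasma cell genes. On the other 9 arrays these medians ran from -0.49 to 0.72.

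Markers of lymph node structure stood high on the same 3 arrays. Of 9 such markers measured of 10 listed, 6 had these arrays highest, namely Ccl21a, Ccl19, Cxcl13, Glycam1, Cr2 and Fcer2a. The list is not one of structure alone, since some of its genes, such as Cr2, are also genes of B cells. Cr2 is counted again below under B cell receptor signalling and Cxcl13 under B cell factors, so these lists are not independent. The summed level of the list was 14.40 to 15.68 on the Nlrx1-/- replicate 1 arrays, 8.41 to 9.39 on the replicate 2 arrays and 8.36 to 9.24 in WT tumours, as the log2 of the summed linear values. Glycam1, a mucin of high endothelial venules that mammary epithelium also makes, read 12.75, 12.93 and 13.16 on the 4T1OE, 4T1OE-CTL and parental replicate 1 arrays of Nlrx1-/- hosts, 4.10 to 5.55 on the replicate 2 arrays and 3.71 to 4.98 in WT tumours. The follicle chemokine Cxcl13 read 14.04, 15.18 and 12.83 on the replicate 1 arrays, 5.39 to 6.98 on the replicate 2 arrays and 4.61 to 7.82 in WT tumours. Ccl21a, which guides lymphocytes and dendritic cells into the node, read 12.32, 12.52 and 12.10, 5.56 to 6.69 and 6.02 to 6.99 in the same order. Complement receptor gene Cr2, of B cells and follicular dendritic cells, read 8.39, 9.65 and 7.84, 3.43 to 3.70 and 3.25 to 5.32. Unlike most B cell genes, Glycam1 was highest on the parental array. Madcam1 and Chst4, also genes of high endothelium, were under the negative control median on all 12 arrays. The part of lymph node tissue in the B cell gene values was not tested.

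T cell markers also stood high there, and on some WT arrays as well. Of 10 measured of 12 listed, 5 (Cd3d, Cd3e, Cd4, Cd5 and Cd6) had the 3 arrays highest, and the summed level was 11.70 to 12.89 on the Nlrx1-/- replicate 1 arrays, 9.44 to 10.01 on the replicate 2 arrays and 9.26 to 10.99 in WT tumours. Cd3e read 8.90, 10.15 and 8.05 on the 4T1OE, 4T1OE-CTL and parental replicate 1 arrays, 4.60 to 5.40 on the replicate 2 arrays and 5.14 to 7.19 in WT tumours. The highest WT values of Cd3e lay on the 4T1OE-CTL arrays, where the B cell genes stood at the level of the other WT tumours. Neutrophil markers had a median deviation of -1.14, -2.20 and -1.19 on the 4T1OE, 4T1OE-CTL and parental replicate 1 arrays of Nlrx1-/- hosts. It was -0.81 to 0.90 on the replicate 2 arrays and -1.35 to 1.96 in WT tumours. Only the Nlrx1-/- 4T1OE-CTL replicate 1 array thus lay under the WT range. The highest WT value was that of the WT 4T1OE-CTL replicate 1 array. The median difference of these markers between Nlrx1-/- and WT hosts was -2.58 within 4T1OE-CTL and -1.85 within 4T1OE, with 0 of 5 called. Their part in the B cell gene values was not tested. Macrophage, neutrophil, NK cell, fibroblast and adipocyte, and skeletal muscle markers had 0 genes with the 3 arrays highest, of 7, 5, 5, 6 and 6 measured. Plasmacytoid and conventional dendritic cell lists had 1 of 6 each, Ccr9 and Xcr1.

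**Figure D3:**
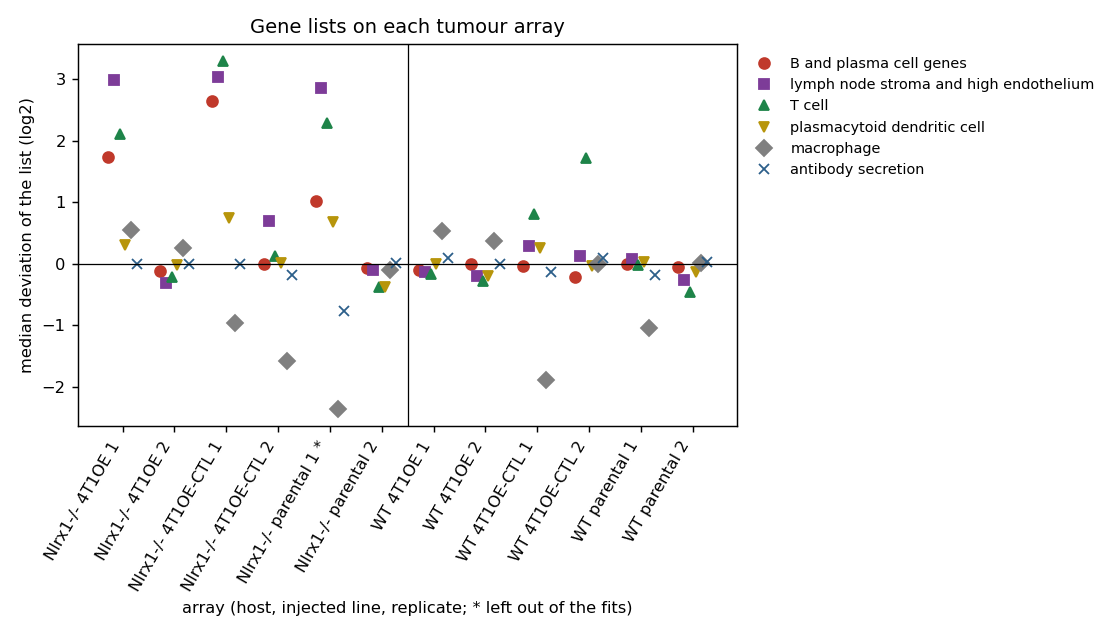
Points are the median, over the genes of a list, of the distance of its log2 value from its own median across the 11 fitted arrays (vertical axis), on each array (horizontal axis; asterisk, left out of the fits; the line parts Nlrx1-/- from WT hosts). The B and plasma cell genes reach 1.02 to 2.64 and the lymph node genes 2.85 to 3.03 on the Nlrx1-/- replicate 1 arrays, whereas the T cell list also reaches 1.72 on a WT 4T1OE-CTL array and the antibody secretion list stays at or under 0.09.

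Other lists of B cell biology showed the pattern in part. Of B cell receptor signalling genes other than the members, 3 of 21 measured had the 3 arrays highest, against 1.23% of all features. They were Cr2, Pik3cd and Cd5, and Cd5 is also counted among the T cell markers above. Of B cell factors and their receptors 5 of 19 had these arrays highest (Cxcl13, Cxcr5, Cxcl12, Cd40lg and Ccr6), and of germinal centre genes 3 of 11 (Gcsam, Rgs13 and Bach2). Of the antibody secretion genes it was 0 of 15, and of the immunoglobulin genes 0 of the 3 measured, all of them surrogate light chain genes. The main antibody chain genes were not analysed here. The BAFF gene Tnfsf13b was under the negative control median on all 12 arrays.

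The design asked how the host's Nlrx1 and the line's NLRX1 relate to these genes. In the fit across all features, 0 of the 29 members passed an adjusted p of 0.05 between Nlrx1-/- and WT hosts, as did 0.0% of all features. At an unadjusted p under 0.05 it was 8 members, against 4.3% of features (0 to 18 members with 1 array left out in turn), and at that p with a fold of 2 it was 7 members, against 0.459% of features. The members' median difference was 0.91, with 27 of 29 positive, against 0.00 for all features, and it was 0.34 without the Nlrx1-/- 4T1OE-CTL replicate 1 array and 0.56 without the Nlrx1-/- 4T1OE replicate 1 array. Without the Nlrx1-/- replicate 1 arrays of 4T1OE and 4T1OE-CTL, a choice made after seeing the data, the median was -0.04, with 13 of 29 positive and 0 members at an unadjusted p under 0.05. For 0 members, and 0.207% of features, did the 5 Nlrx1-/- and 6 WT arrays not overlap.

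The spread within Nlrx1-/- hosts was wide in single genes. Jchain averaged 6.83 ± 3.34 in Nlrx1-/- tumours and 3.88 ± 0.26 in WT tumours (SD, n = 5 and 6). As all WT values were under the negative control median, this is a difference of at least 2.72-fold (limma adjusted p = 1.00). Cd22 averaged 6.48 ± 2.41 in Nlrx1-/- and 4.44 ± 0.21 in WT tumours, at least 2.13-fold (limma adjusted p = 1.00). Cd79b gave at least 1.63-fold and Pou2af1 at least 1.48-fold, with the same adjusted p. These bounds rested on the high arrays. Without the Nlrx1-/- 4T1OE-CTL replicate 1 array they were 1.31-fold for Jchain and 1.21-fold for Cd22, and none remained for Cd79b and Pou2af1. Such a bound runs from the Nlrx1-/- mean to the WT mean with each array raised to its negative control median. Bank1, measured on both sides, averaged 8.30 ± 2.72 in Nlrx1-/- and 6.08 ± 0.45 in WT tumours (difference 2.05, SE 0.93, limma adjusted p = 1.00). Cd37 differed by 1.98 (SE 0.88, limma adjusted p = 1.00). In each of these genes the 2 fitted Nlrx1-/- replicate 1 arrays were high and the 3 replicate 2 arrays were near the WT values.

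Within 1 injected line each side held 2 arrays. Within 4T1OE-CTL, 0 members and 0.0% of all features passed the adjusted threshold, and 3 members and 9.55% of features had an unadjusted p under 0.05. With a fold of 2 as well, it was the same 3 members and 4.09% of features. Cd22 averaged 7.39 ± 3.33 in Nlrx1-/- and 4.29 ± 0.26 in WT 4T1OE-CTL tumours, at least 4.04-fold (limma adjusted p = 0.520). Pou2af1 gave at least 2.66-fold (limma adjusted p = 0.519). Without the Nlrx1-/- replicate 1 array no bound remained for either gene. In this line 15 members did not overlap, all higher in Nlrx1-/- tumours, where 34.1% of all features did not overlap. The members' median difference was 1.54, and 0.15 without the Nlrx1-/- replicate 1 array. Mzb1 was the third gene at that unadjusted p, with means of 5.57 ± 1.58 in Nlrx1-/- and 4.04 ± 0.01 in WT tumours, at least 1.15-fold (limma adjusted p = 0.520), and no bound without the Nlrx1-/- replicate 1 array. With each of the 11 arrays left out in turn, the count at an unadjusted p under 0.05 ran from 0 to 21 members, highest without the Nlrx1-/- 4T1OE-CTL replicate 2 array. Within 4T1OE, 0 members passed the adjusted threshold (0.0% of features) and 0 had an unadjusted p under 0.05 (0.874% of features, and 0.212% with a fold of 2). Without the Nlrx1-/- 4T1OE replicate 2 array 13 members had such a p, and without either Nlrx1-/- 4T1OE-CTL array 6 had. There 8 members did not overlap, all higher in Nlrx1-/- tumours, against 32.3% of features. The members' median difference within 4T1OE was 0.83, and -0.11 without the Nlrx1-/- replicate 1 array. The difference between these 2 host effects had a median of -0.56 over the members, which turned to 0.73 without the Nlrx1-/- 4T1OE-CTL replicate 1 array and to 0.50 without the Nlrx1-/- 4T1OE replicate 2 array, and 0 members passed (0.0% of features; 0 at an unadjusted p under 0.05, or up to 10 with an array left out, against 3.27%, or 2.57% with a fold of 2). Within the parental line the single fitted Nlrx1-/- array allowed no spread of its own, and no such comparison was made.

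Between lines, 0 members were called in any comparison. For 4T1OE against 4T1OE-CTL, 4.73% of all features passed and 24.2% had an unadjusted p under 0.05, and 0 members did either (6 at that unadjusted p without the Nlrx1-/- 4T1OE-CTL replicate 1 array). The 4.73% depended on the setting. With all 12 arrays 19 features rose and 6 fell, and with the array spread as a covariate 0 rose and 4 fell. Without these changes, the unadjusted p with a fold of 2 was met by 6.71% of features and 0 members. The arrays of these lines did not overlap in 16.5% of features and 0 members. The members' median difference was -0.29, and it turned to 0.67 without the Nlrx1-/- 4T1OE-CTL replicate 1 array and to 0.26 without the Nlrx1-/- 4T1OE replicate 2 array. For 4T1OE-CTL against parental tumours, 2.59% of features passed and 0 members, with 1 member (Vpreb3, under background on every array) at an unadjusted p under 0.05 against 15.9% of features (0 to 3 members with an array left out). With a fold of 2 as well, it was 0 members and 5.49% of features. The members' median was 0.52, and 0.03 without the Nlrx1-/- 4T1OE-CTL replicate 1 array or without the Nlrx1-/- parental replicate 2 array. Here Ms4a1 and Btla, 2 of 29 members, did not overlap, against 11.3% of features.

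For 4T1OE against parental tumours, 1.33% of features passed and 0 members, and 1 member against 13.8% of features had an unadjusted p under 0.05 (with a fold of 2, the same member against 4.72% of features). That member was Cd72, which averaged 11.31 ± 0.67 in 4T1OE and 9.40 ± 0.41 in parental tumours (SD, n = 4 and 3; difference 1.86, SE 0.75, limma adjusted p = 0.286). Its 4T1OE arrays were all above its parental arrays, as were those of Bank1, so 2 members did not overlap, against 17.8% of features. The members' median was 0.31, and -0.04 without the Nlrx1-/- 4T1OE replicate 1 array and -0.23 without the Nlrx1-/- parental replicate 2 array.

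**Figure D4:**
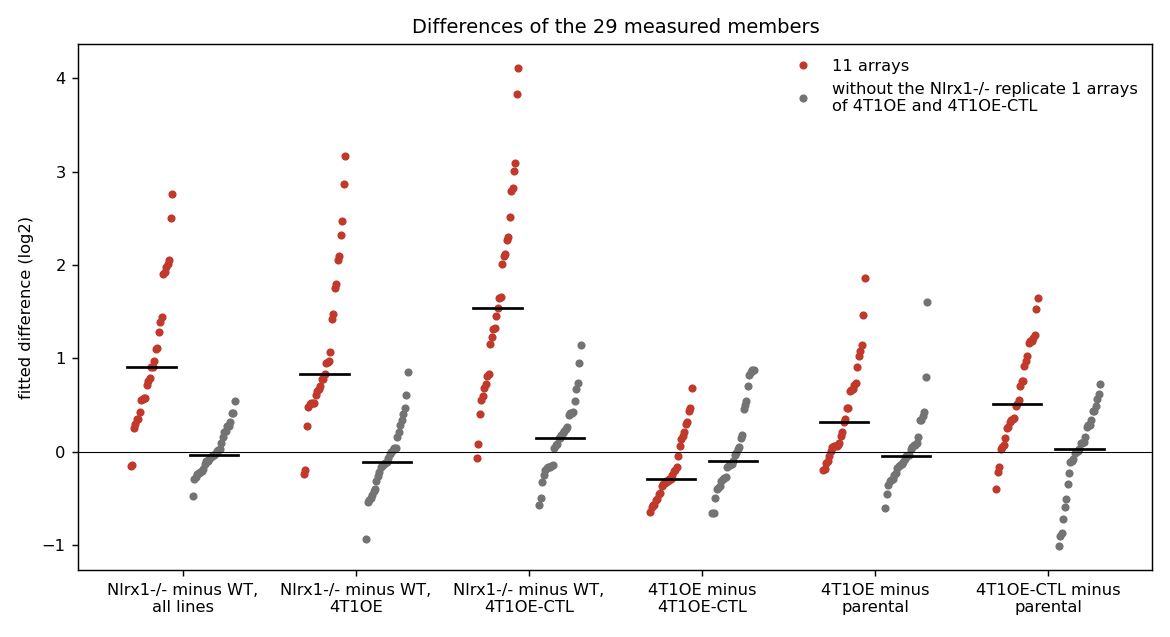
Each point is the fitted log2 difference (vertical axis) of 1 of the 29 members in a comparison (horizontal axis), from 11 arrays in red and without the Nlrx1-/- replicate 1 arrays of 4T1OE and 4T1OE-CTL in grey; bars are medians, and members under background on 1 side are plotted at their fitted value. The median between hosts is 0.91 with 11 arrays and -0.04 without those 2.

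Of the further lists, B cell receptor signalling had 2 of 21 genes that rose in 4T1OE relative to 4T1OE-CTL tumours and 0 that fell, where 4.73% of all features passed in either direction. These were Plcg2, the phospholipase of the receptor (difference 0.84, SE 0.21, limma adjusted p = 0.0424), and Cd81, a tetraspanin that most cells express (1.28, SE 0.33, limma adjusted p = 0.0499). Relative to parental tumours, Plcg2 fell in 4T1OE-CTL tumours (-1.29, SE 0.22, limma adjusted p = 0.0119). Macrophage markers moved with them, since 4 of 7 rose in 4T1OE relative to 4T1OE-CTL tumours. They were Csf1r (2.32, SE 0.38, limma adjusted p = 0.0134), Mrc1 (2.19), C1qb (1.98) and Mertk (1.10), with adjusted p up to 0.0494. The median difference of the list was 1.22, and the part of macrophages in the values of Plcg2 and Cd81 was not tested. Of B cell factors and their receptors, 1 of 19 changed, near the 4.73% of all features in that comparison and the 2.59% for 4T1OE-CTL against parental tumours. Il7r, the interleukin 7 receptor of B cell precursors and T cells, fell in 4T1OE relative to 4T1OE-CTL tumours (-1.63, SE 0.42, limma adjusted p = 0.0485) and rose in 4T1OE-CTL relative to parental tumours (2.24, SE 0.46, limma adjusted p = 0.0248). Both comparisons share the 4T1OE-CTL arrays. Il7r is also in the T cell list, whose median difference was -1.18 and 2.04 in the same comparisons, and the part of T cells in its values was not tested. These calls were near the threshold. With each of the 11 arrays left out in turn, Plcg2 and Cd81 lost their 4T1OE to 4T1OE-CTL call in 8 fits each and Il7r in 9, with adjusted p up to 0.145, 0.150 and 0.139 there and up to 0.716, 0.895 and 0.245 over all alternatives. The 4T1OE-CTL to parental call of Plcg2 was lost without the Nlrx1-/- parental replicate 2 array (adjusted p = 0.127) and that of Il7r in 4 fits, and with all 12 arrays the adjusted p were 0.611 and 0.381. In the left-out fits Csf1r lost its call in 2, Mrc1 and C1qb in 7 each and Mertk in 8, and over all alternatives their adjusted p reached 0.873 (Mertk). Germinal centre and antibody secretion genes had 0 called in each of the 7 comparisons.

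Few markers of other cells were called, all of them between lines. In 4T1OE relative to 4T1OE-CTL tumours, Tcf4, a transcription factor of plasmacytoid dendritic and many other cells, rose (1.50) and Bst2, an interferon-induced membrane protein, fell (-1.47). In 4T1OE-CTL relative to parental tumours Bst2 rose (1.93), Tcf4 fell (-1.68), Klrk1, the receptor NKG2D, rose (1.69) and Lum, a matrix proteoglycan, fell (-3.62). Nkg7, a granule protein of NK and cytotoxic T cells, rose there by at least 2.11-fold, with all its parental values under the negative control median. In 4T1OE relative to parental tumours Klrk1 (1.13) and the integrin gene Itgax (1.64) rose, whereas Lum (-2.65) and the collagen gene Col1a1 (-2.23) fell. Klrk1 was under the negative control median on 2 of the 3 fitted parental arrays, so both of its differences start from a side partly at background. The limma adjusted p of all these calls ran from 0.00114 to 0.0391. With an array left out, the calls of Bst2 and Klrk1 between 4T1OE-CTL and parental tumours and both of Lum were kept in all 11 fits, whereas the other 7 were lost in 1 to 8 of them, and over all alternatives the highest adjusted p was 0.724 (Tcf4, 4T1OE against 4T1OE-CTL).

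The 10 other genes whose values followed the members' median deviation most closely over the 11 fitted arrays, by Pearson correlation, were Dnah8, Ikzf3, H2-Ob, Septin1, Ltb, Cd2, Kmo, Lef1, Gcsam and Gimap6. No coefficient is given, because the arrays fell into separate sets. Ikzf3, the lymphocyte transcription factor Aiolos, read 7.50, 8.74 and 6.00 on the 4T1OE, 4T1OE-CTL and parental replicate 1 arrays of Nlrx1-/- hosts, 4.81 to 5.14 on the replicate 2 arrays and 4.88 to 5.49 in WT tumours. H2-Ob, a class II chain that B cells express, read 7.74, 8.61 and 5.99, 4.82 to 5.31 and 4.80 to 5.48 in that order. Ltb, the lymphotoxin beta of lymphocytes, read 8.84, 9.19 and 6.83, 5.84 to 6.23 and 5.65 to 6.22. Cd2 and Lef1, better known from T cells, read 8.69, 10.22 and 7.87 and 6.70, 8.05 and 7.01 on the replicate 1 arrays. All 10 genes had their 3 highest values on those arrays, as did 1.23% of all features. The place of the 2 fitted arrays follows from the choice of the genes by correlation. The parental array was outside that correlation, but the 3 arrays had already been seen to be alike, so this is a description with no test.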

How the data were processed

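Deposited log2 expression values of 12 tumour arrays were used as the authors had normalized them. The Transcriptome Analysis Console is named, per the submitters' processing notes, without its background or normalization settings. Of 28846 features, 6640 controls were left out of the tests. Of the 22206 tested, 19572 had 1 symbol in the platform annotation and 2634 had none. All arrays differed, and correlations between fitted arrays were at least 0.948. A control array without values was not used.

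Tests were two-sided and used lmFit and eBayes of limma 3.58.1 under R 4.3.3, with Benjamini-Hochberg adjustment across features, in an additive model of host and line or with 1 mean per group, and the code was tested on simulated data. The number of arrays limits the precision. Members and gene lists were chosen with earlier results of these data known. Values by array were given for members with the widest range or a small p; all were accounted for. Of other genes, listed ones were counted and those called were named with their values, besides Nlrx1 and the 10 genes most alike; further listed genes were named after their values were seen. Alternatives were all 12 arrays, quantile normalization, a filter on dim features (33.3%), variance and weight settings, the array spread, the replicate block, the console's usual threshold, the other feature of a gene and each array left out.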

Additional observations from a re-analysis of the deposited data

Results flagged for a closer look

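Arrays far from the others of their group were looked for by the gap to the nearest array over the group's range, against critical values of 0.829 for 4 arrays and 0.625 for 6. The members' median deviation and the 12 members with the widest range over the arrays were looked at in 4 sets of arrays. Of these 52 groups of values, 22 held such an array. The range that chose the members was set by the high arrays, so the count follows from the choice and cannot be read against the 1 in 20 that chance gives. In 4T1OE tumours (both hosts, 4 arrays) the far array was Nlrx1-/- replicate 1. Its ratio was 0.937 for the members' median deviation, 0.942 for Cd79a, 0.932 for Jchain, 0.836 for Bank1, 0.887 for Cd22, 0.925 for Cd37, 0.857 for Cd79b, 0.936 for Pou2af1, 0.898 for Pax5 and 0.949 for Ms4a1. In 4T1OE-CTL tumours it was again Nlrx1-/- replicate 1. Its ratio was 0.923 for the members' median deviation, 0.957 for Cd79a, 0.958 for Bank1, 0.836 for Cd22, 0.86 for Cd37, 0.913 for Cd79b, 0.843 for Tnfrsf13c, 0.965 for Pax5, 0.946 for Ebf1, 0.957 for Ralgps2 and 0.862 for Ms4a1. Among the 6 WT arrays, Cd79b had a ratio of 0.626 on the 4T1OE-CTL replicate 1 array, where its value of 4.49 was under the negative control median. In the array left out of the fits, Nlrx1-/- parental replicate 1, the members' median deviation was 1.02, above the -0.22 to 0.00 of the WT arrays. The cause was not tested.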

How the results depend on the processing

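The count of members called stayed at 0 in all 151 fits with an adjusted p, over the 7 comparisons, including those with each array left out in turn (0 to 0 in each comparison). Between hosts, within each of the 2 lines and for the interaction, 0.0% of all features passed in the first fit. A steady count of 0 there thus says nothing particular about the members. Between lines 4.73%, 2.59% and 1.33% of features passed in that fit. Under the console's usual threshold, an unadjusted p under 0.05 and a fold of 2, the count was 7 members between Nlrx1-/- and WT hosts (0.459% of features), 3 within 4T1OE-CTL (4.09%), 1 between 4T1OE and parental tumours (4.72%) and 0 in the other 4 comparisons. With each array left out, the members' median difference ran from 0.34 to 1.21 between hosts, from 0.15 to 2.65 within 4T1OE-CTL, from -0.11 to 1.90 within 4T1OE, from -0.69 to 0.67 for 4T1OE against 4T1OE-CTL tumours, from 0.03 to 0.82 for 4T1OE-CTL against parental tumours, from -0.23 to 0.60 for 4T1OE against parental tumours and from -1.94 to 0.73 for the interaction. The Nlrx1 difference between hosts, not called in any setting, changed sign with array weights (0.10), with the array spread as a covariate (0.034) and in some fits with an array left out (-0.27 to 0.10). The low ends between hosts and within 4T1OE-CTL came without the Nlrx1-/- 4T1OE-CTL replicate 1 array, and that within 4T1OE without the Nlrx1-/- 4T1OE replicate 1 array. After quantile normalization the members' median deviation on the Nlrx1-/- 4T1OE, 4T1OE-CTL and parental replicate 1 arrays was 1.67, 2.51 and 0.94. Replicate numbers did not pair the arrays across all groups, since correlations of deviations ran from -0.31 to 0.37 over pairs of groups. They were 0.37 for Nlrx1-/- 4T1OE with Nlrx1-/- 4T1OE-CTL and 0.36 for WT parental with WT 4T1OE-CTL tumours. The Nlrx1-/- parental group, with a single fitted array, had no part in these correlations. A factor shared by the Nlrx1-/- replicate 1 arrays was not tested. In the fit blocked on replicate number (the replicate block) 0 members were called in each comparison. The block moved the members at an unadjusted p under 0.05 to 15 between hosts, against 8 without it, to 8 within 4T1OE-CTL, against 3, and to 0 for 4T1OE-CTL against parental tumours, against 1. The model with 1 mean per group already was the one used within lines, so it was an alternative for the other 4 comparisons alone. Weak signal limits these genes, since 14 of 29 lay under the negative control median on the 9 arrays outside the 3 high ones.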
